A study of Mus musculus with 12 samples.

Results

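Rab proteins are small GTPases that label the membranes of a cell: each member marks particular vesicles or organelles while it holds GTP and lets go of them after GTP hydrolysis. Exchange factors load a Rab with GTP, GTPase-activating proteins, most of which carry a TBC domain, end the active state, and effectors such as rabaptins and the Rab11 family-interacting proteins read it. In microglia this machinery carries receptors, phagocytosed material and secreted cytokines between the cell surface, endosomes, lysosomes and the Golgi apparatus. The mark studied here, N6-methyladenosine (m6A), is placed on messenger RNA by an enzyme complex whose catalytic subunit is METTL3, and it bears on how RNA is processed, translated and degraded.

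The genes described here are those whose symbol begins with Rab and a digit, Rabgap, Rabgef, Rabep or Tbc1d and a digit, pseudogenes left out. The rule found 91 genes among 14070 gene symbols with an m6A peak: 45 Rab GTPases, 33 GTPase-activating proteins, 8 effectors or partners, 3 exchange factors and 2 antisense noncoding RNAs. Roles were assigned by symbol, so every Tbc1d gene counts as a GTPase-activating protein, whether or not that activity is established for it. All 91 lay at their RefSeq position in assembly GRCm38.p6. Another 19 symbols of that table fit the rule, 16 of them protein-coding, and had no row in the lists used here; they include Rab27a, Rab38, Rab34 and Rabgap1l.

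The series used BV2 cells, an immortalised mouse microglial line, all of them exposed to bacterial lipopolysaccharide (LPS). The 12 libraries form 4 groups of 3: m6A antibody pull-downs (IP) and matching inputs from wild-type cells (genotype WT) and from cells with Mettl3 knocked out (genotype Mettl3 KO, here KO). No group without LPS and no LPS dose or time is given in the labels, and whether the knockout is 1 clone is not stated. The values are 2 deposited peak lists, 1 per genotype, and each peak carries the authors' log2 of IP over input and their adjusted p. No value belongs to a single library, so no spread between replicates can be measured, and every comparison of KO with WT below sets 2 lists side by side with no test. Peak enrichment is relative to input: it is neither an amount of RNA nor of protein. Depth per library is unknown from these files.

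As a check of the cell type, 11 of 13 microglial marker genes, among them Csf1r, Itgam and Trem2, had a peak in each list, against 1 of 10 genes of sympathetic neurons and neuroblastoma, Tubb3; the labels' protocol text names neuroblastoma cells. P2ry12 and Sall1 were the microglial markers without a peak. Mettl3 itself carried a peak in both lists, with log2 values of 1.57 (WT) and 2.07 (KO), which measures enrichment and does not check the knockout.

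Of the 110 RefSeq genes that fit the rule, 88 had an m6A peak in both genotypes. A gene enters the 91 by having a peak in either list; the WT list holds 90 of them and the KO list 89. Only Tbc1d19 and Tbc1d21, which encode TBC-domain proteins, were marked in WT alone, and only the GTPase Rab25 in KO alone. Among all 14070 genes, 7.41% were marked in WT alone and 5.02% in KO alone. The 91 genes carried 274 WT peaks, or 3.04 per gene, and 325 KO peaks, or 3.65 per gene, against 2.75 and 3.16 over all genes.

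The peaks of genotype-restricted members were mostly weak. Tbc1d19 had WT peaks with a log2 of 0.75 (adjusted p = 0.000281) and 0.53, and the single Rab25 peak, 200 bases at the end of the gene's 3' untranslated region (UTR), had a log2 of 0.84 in KO (adjusted p = 0.0069). Tbc1d21 was the stronger case, with 1 WT peak over coding exons, on chromosome 9 from 58362817 to 58366689, at a log2 of 1.88 (adjusted p = 1.24e-06).

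Where the marks lay was described by the authors' annotation. Of the WT peaks of these genes, 63.1% (95% Wilson interval 57.3 to 68.6) were annotated to 3' UTRs, 20.1% (15.8 to 25.2) to coding exons and 12.4% (9.02 to 16.8) to 5' UTRs. The corresponding KO values were 59.7% (54.3 to 64.9), 25.2% (20.8 to 30.2) and 10.5% (7.58 to 14.3). Over all peaks, 3' UTRs held 53.0% in WT and 51.4% in KO. Exons of noncoding RNA held 1.46% of the members' WT peaks against 8.15% of all WT peaks, and the rule leaves few noncoding genes among the members. These intervals cover counting of peaks only. Spans are genomic and can include introns: 110 of the 274 WT peaks and 126 of the 325 KO peaks were longer than 1000 bases, the longest being 154412 bases in Tbc1d5.

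At the other end of the transcript, 7 members had a peak of at most 1000 bases that covered a RefSeq transcription start and the first 50 transcribed bases after it. The series text names the consensus RRACH, in which R is A or G and H is any base but G, so that it stands for 12 words of 5 letters. These were searched on the transcribed strand only, since the mark is on RNA, and neighbouring words could overlap. The first 30 transcribed bases of 5 of them are given 5′ to 3′ from RefSeq (GRCm38.p6), with such words in capitals, to show which starts under a narrow peak hold the consensus and which do not.
Rab29 (chr1:131867277-131867306, plus strand): cGGACAaGGACTctgcacaacctcaatttt
Rab11b (chr17:33760457-33760486, minus strand): ccgcctttctccgggAGACCgagggctaga
Rab5a (chr17:53479234-53479263, plus strand): ggctacgtggcggagccggcggaagcagtt
Tbc1d2b (chr9:90270740-90270769, minus strand): ggcggcggcccggaggagcgcggggcggga
Rab22a (chr2:173659845-173659874, plus strand): aggtgacccagctggcgtcccaagatggcg
Rab29 held 2 words, from bases 2 and 8, and Rab11b held 1, from base 16, while the other 5 of the 7 held none in their first 50 bases. The strongest of these start peaks, that of Rab5a, was among those without a word. It spanned 500 bases in WT at 1.81 and 425 bases in KO at 1.38. The Rab29 start peak was weak in both lists, at 0.63 in WT and 0.60 in KO, that of Rab11b stood at 0.92 and 0.54, and that of Tbc1d2b, with the same coordinates in both lists, at 1.03 and 0.89. Rab22a had its start peak in KO alone, at 0.76. A word was found in 29.7% of 101 starts of member genes and in 44.6% of all 32851 starts in the table, so its presence or absence under a peak is common either way and marks no site.

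The Rab GTPases themselves were mostly moderately enriched. In a bulk sample fewer marked cells and less m6A per cell cannot be told apart, nor can less m6A be told from an altered RNA here, since input expression was not analysed. Over the 44 with a WT peak the median of the strongest-peak log2 was 1.27, and over the 45 with a KO peak it was 1.03; over all genes it was 1.36 and 1.07. A peak of at least 4-fold (log2 of 2 or more) was listed for 8 of 44 Rab GTPases in WT and for 4 of 45 in KO, against 28% and 11.4% of all genes. The KO value was below the WT value for 33 of the 44 genes with both, where 73.4% of all 12320 genes with both were. It was lower by 1 or more for 1 of 44, against 9.54% of all genes, and that gene was Rab20.

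**Figure D1:**
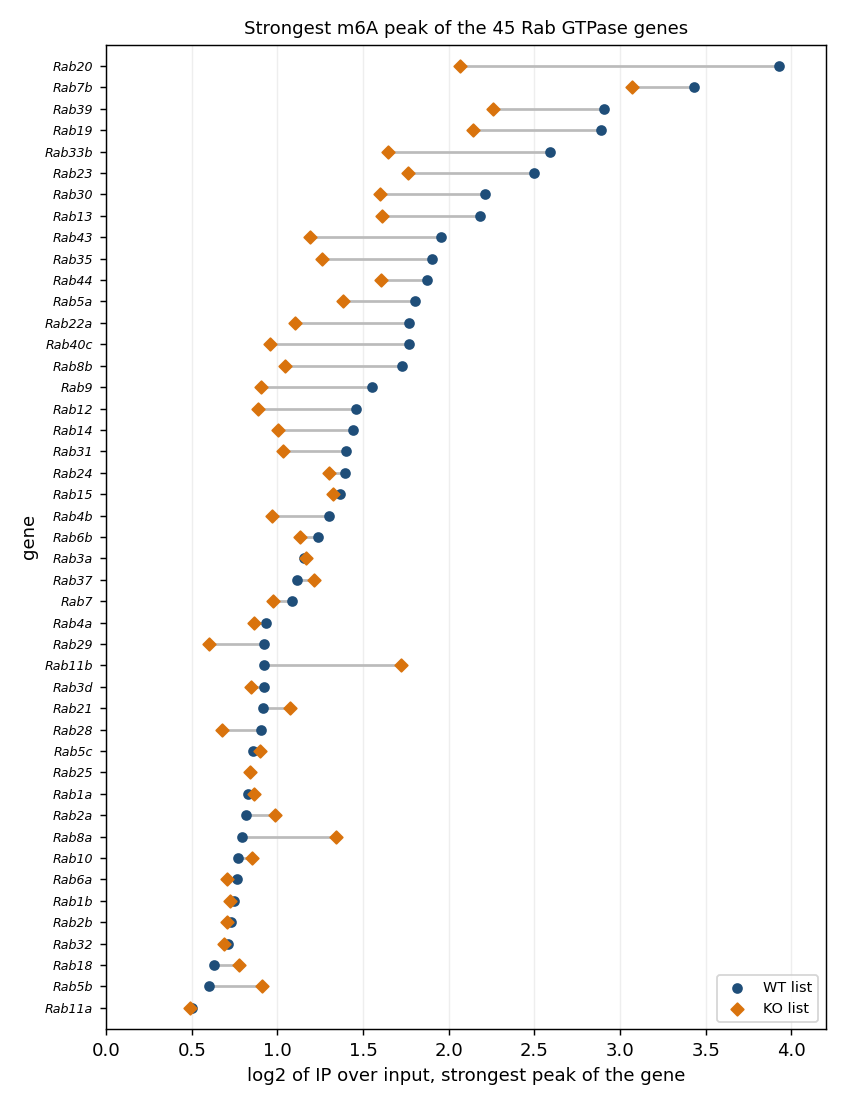
Log2 of IP over input of the strongest peak of each of the 45 Rab GTPase genes (horizontal axis), with the WT list as circles and the KO list as diamonds joined by a line; there are no replicates and so no error bars. Rab20 spans the widest gap, from 3.93 to 2.07, and most genes with a WT value below 1 have both symbols close together; Rab11b and Rab8a stand to the right in KO.

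Rab20, a GTPase of phagosomes and endosomes, had the strongest peak of all 91 genes. Its single WT peak covered the whole gene, on the minus strand of chromosome 8 from 11453518 to 11478710, and was annotated as 3' UTR. Its log2 was 3.93, or 15.2-fold, with a deposited adjusted p listed as 0. The single KO peak ran over the same stretch but for its first 142 bases, at a log2 of 2.07, or 4.19-fold. Its difference was -1.86, and 1.02% of all genes had a lower one.

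Another 7 Rab GTPases had a peak of at least 4-fold in WT. Rab7b, which acts between late endosomes and the trans-Golgi network, had a strong peak in both lists, at 3.43 in WT and 3.07 in KO, on chromosome 1 from 131697928 to 131713690 in WT. The short peak at its gene end had the same coordinates in both lists and was slightly stronger in KO (1.39 in WT and 1.55 in KO). Rab39 stood at 2.91 and 2.26 and Rab19 at 2.89 and 2.15. Rab33b, a Golgi Rab that binds the autophagy protein ATG16L1, stood at 2.59 and 1.65, with a 3' UTR peak of about the same extent in both lists (10400 and 10075 bases). Rab23 (2.50 and 1.76), Rab30 (2.21 and 1.60) and Rab13 (2.18 and 1.61) completed the 8 GTPases at or above 4-fold in WT, and all 8 had the lower value in KO. Their median difference of -0.69 lies beside -0.83 for all 3351 genes at or above 4-fold in WT. The groups were cut on the WT value, so only the members' value beside that of all genes can be read.

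Early endosome Rabs showed no common direction. Of the 8 listed, 5 had the lower and 3 the higher KO value (73.4% of all genes lower), with a median difference of -0.20 beside -0.25 for all genes. The 3 Rab5 paralogues, which organise fusion of early endosomes, differed in size and in order: Rab5a stood at 1.81 in WT and 1.38 in KO, Rab5b at 0.60 and 0.91, and Rab5c at 0.86 and 0.90. The Rab5a peak lay at the gene start, those of Rab5b and Rab5c in the 3' UTR. Rab22a stood at 1.77 and 1.10, with 2 WT and 8 KO peaks, Rab31 at 1.40 and 1.03, Rab4b, with an identical 225-base peak in both lists, at 1.30 and 0.97, Rab4a at 0.93 and 0.86, and Rab21 at 0.92 and 1.07.

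Recycling and exocytic Rabs were also split, 5 lower and 3 higher of 8 (73.4% of all genes lower), with a median difference of -0.22. Rab11a, the main Rab of recycling endosomes, had the lowest WT value of all 90 genes with a WT peak, 0.50, and 0.49 in KO. Its paralogue Rab11b stood at 0.92 in WT and 1.72 in KO, but these were peaks at different ends of the gene. The KO peak covered 300 bases and lay 100 bases short of the listed gene end, with an adjusted p of 5.97e-05 and no overlapping WT peak. At the 3' UTR position that both lists marked, Rab11b stood at 0.85 in WT and 0.71 in KO. Rab8a was similar, with 0.79 in WT, 1.34 in KO over 100 bases with no overlapping WT peak, and 0.79 and 0.55 at the overlapping position. Rab8b, by contrast, had the same stretch marked in both lists, 72716 bases in WT, with 1.73 and 1.04. Rab35 stood at 1.91 and 1.26, Rab10 at 0.77 and 0.86 and Rab14 at 1.44 and 1.0; for Rab14 the WT value was an intronic peak with no KO partner, and the shared 3' UTR peak stood at 0.90 in WT and 1.0 in KO.

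All 7 late endosomal and lysosomal Rabs with a peak had the lower KO value, where 73.4% of all genes did, with a median difference of -0.36. As few as 7 genes do not allow such a count to be read as a trait of the group. Besides Rab20 and Rab7b these were Rab9 (1.55 in WT and 0.91 in KO), which returns mannose 6-phosphate receptors to the Golgi, Rab12 (1.46 and 0.89), Rab29 (0.92 and 0.60), Rab7 (1.09 and 0.98), which drives late endosomes to lysosomes, and Rab32 (0.71 and 0.69). With each difference read against the -0.25 of all genes, 5 of the 7 were lower and Rab7 and Rab32 were not. Rab38, the paralogue of Rab32, was not in the lists used here. The Rab7 peak ran 29585 bases from the gene start in WT and 30621 in KO, while its peaks at the gene end stood at 0.59 in WT and 0.71 in KO.

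The Rabs of the endoplasmic reticulum and Golgi ranged from 0.63 (Rab18) to 2.89 (Rab19) in WT. Rab19, Rab33b, Rab30 and Rab43 (1.95 in WT and 1.19 in KO) were well enriched and lower in KO. The widely expressed Rabs of the early secretory pathway had weak strongest peaks of nearly equal value in the 2 lists. Rab1a stood at 0.83 and 0.86, with an identical peak of 17537 bases, Rab1b at 0.74 and 0.72 and Rab2a at 0.82 and 0.99. Rab2b stood at 0.73 and 0.70, Rab6a at 0.77 and 0.71 and Rab18 at 0.63 and 0.78. Rab6b, the paralogue of Rab6a and the exception in level, stood at 1.23 and 1.13. For Rab1b, Rab2a, Rab6b and Rab18 the strongest WT and KO peaks did not overlap. Their strongest overlapping pairs stood at 0.61 and 0.72, 0.76 and 0.99, 1.23 and 1.11, and 0.45 and 0.78. The strongest WT peaks of Rab1b, Rab2a and Rab18 overlapped weaker KO peaks, at 0.40, 0.56 and 0.58. Of the 11 genes, 8 had the lower KO value (73.4% of all genes), with a median difference of -0.06. The secretory Rabs with a peak, Rab3a (1.16 and 1.17), Rab3d (0.92 and 0.85) and Rab37 (1.11 and 1.22), differed by at most 0.10 in their strongest peaks. For Rab3d these peaks lay at different places, and its overlapping pair stood at 0.59 in WT and 0.42 in KO.

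The Rab GTPases outside these groups that had both values all had the lower KO value in their strongest peaks, where 73.4% of all genes did. They are too few for this to be read as a trait. Rab40c, whose SOCS box ties it to ubiquitin ligases, had values of 1.77 (WT) and 0.96 (KO), and Rab44, a large Rab of blood cell granules, 1.88 and 1.61. Rab24, linked to autophagy, Rab15 and Rab28 had smaller gaps, with WT values of 1.40, 1.37 and 0.90 and KO values of 1.30, 1.32 and 0.68. For Rab44 and Rab15 the strongest WT and KO peaks did not overlap. Their strongest overlapping pairs were higher in KO, at 1.50 and 1.61 for Rab44 and 1.10 and 1.32 for Rab15. Their strongest WT peaks overlapped weaker KO peaks, at 0.88 and 1.03.

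Over the 44 coding genes that regulate or read Rabs, the median of the strongest-peak log2 was 1.72 in WT (1.27 for the Rab GTPases) and, over 42, 1.18 in KO (1.03). When a gene's peaks were averaged, the medians were 0.74 for regulators and 0.77 for Rab GTPases in KO, the other order, and with peaks of at most 1000 bases they were 0.87 and 0.86 in WT and 0.86 and 0.90 in KO. A peak of at least 4-fold was listed for 19 of 44 in WT (28% of all genes) and for 3 of 42 in KO (11.4%). The KO value was below the WT value for 33 of 42 (73.4% of all genes), with a median difference of -0.37, and lower by 1 or more for 8 of 42 (9.54%). Whether regulators and GTPases differ was not tested. Among regulators at or above 4-fold in WT the median difference was -0.92, beside -0.83 for all such genes, and among the other 23 it was -0.10, beside -0.12.

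**Figure D2:**
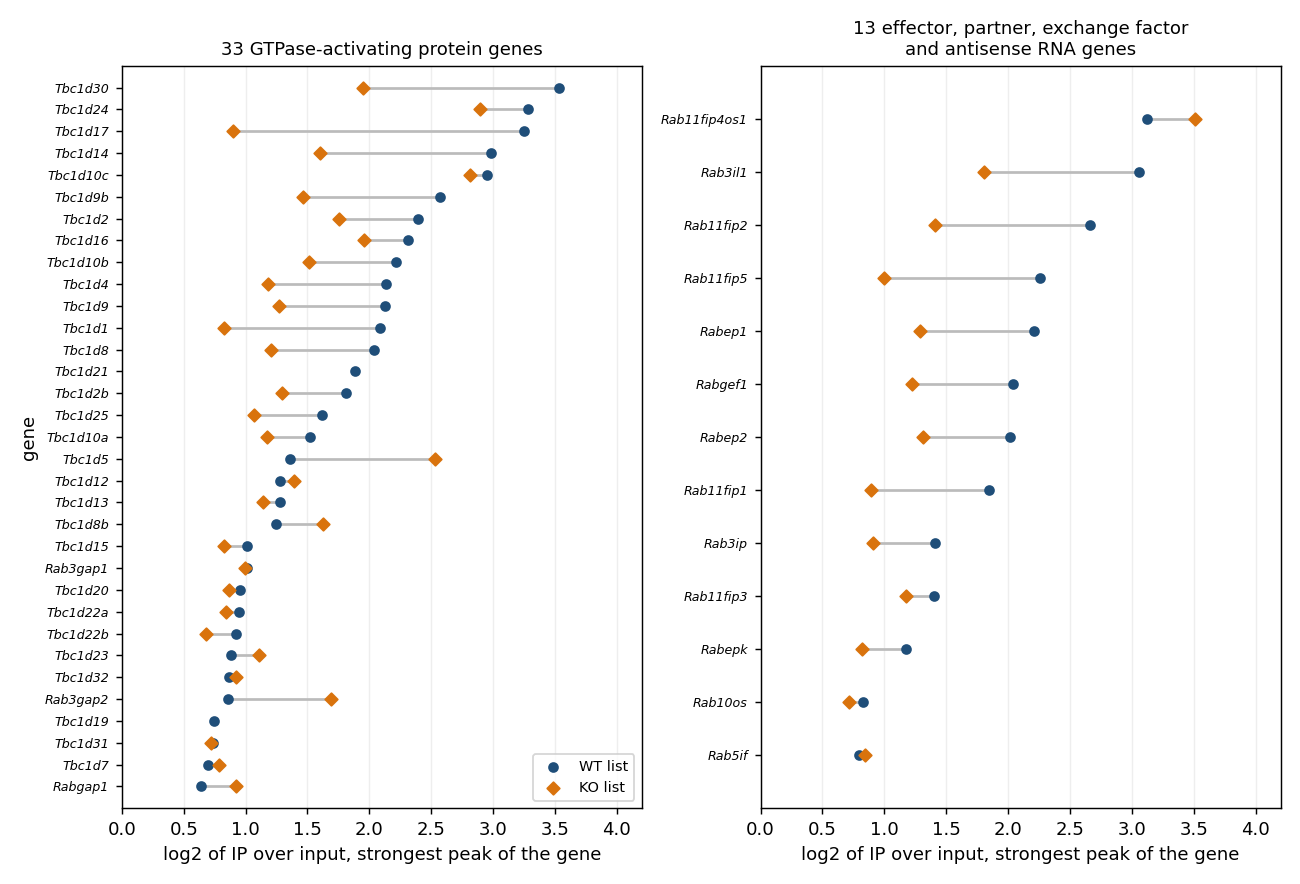
Log2 of IP over input of the strongest peak of each regulator gene (horizontal axis), WT list as circles and KO list as diamonds joined by a line, with GTPase-activating proteins on the left and the remaining 13 members on the right. Tbc1d17, Tbc1d30 and Tbc1d14 show the widest gaps to the left among the GTPase-activating proteins, and Tbc1d5 and Rab3gap2 extend to the right in KO; Tbc1d21 and Tbc1d19 have a WT symbol only.

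Among the GTPase-activating proteins, 23 of 31 with peaks in both lists had the lower KO value, or 74.2% beside 73.4% of all genes, 5 by 1 or more, or 16.1% beside 9.54%. Tbc1d30 stood at 3.53 in WT and 1.95 in KO. It carried 3 WT peaks near its gene end, at 3.53, 3.39 and 2.65, and 4 KO peaks there, at 1.95, 1.69, 1.62 and 0.93, so that each KO peak was weaker than each WT peak. Tbc1d14, a regulator of Rab11-dependent membrane delivery in autophagy, stood at 2.98 and 1.60 in a peak of 20926 bases with identical coordinates in both lists, on chromosome 5 from 36542998 to 36563923. The neighbouring 5' UTR peak went the same way, from 1.84 in WT to 0.97 in KO.

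Tbc1d17, which acts on Rab8 in receptor recycling, showed the widest gap of the 91 genes, 3.25 in WT and 0.90 in KO. Its 2 strongest WT peaks, of 225 and 175 bases at 3.25 and 2.95 (adjusted p = 1.73e-10 and 1.28e-08), lay side by side on chromosome 7 between 44838673 and 44839097 and had no KO partner. The next WT peak, at 1.68 with an adjusted p of 2.11e-58, overlapped the strongest KO peak at 0.90, and the peaks at the gene start were about equal (0.70 in WT and 0.72 in KO). The matched difference was therefore -0.78.

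Tbc1d1 and Tbc1d4, the paired GTPase-activating proteins through which insulin and AMPK signals reach glucose transporter vesicles, were both lower in KO. Tbc1d1 stood at 2.09 in WT, in a coding-exon peak of 500 bases, whose KO partner of 450 bases had a log2 of 0.80; its strongest KO peak, at 0.83, lay in the 3' UTR. Tbc1d4 stood at 2.14 and 1.18 in a 725-base 5' UTR peak, and its long 3' UTR peak at 1.89 and 1.04. Tbc1d9b (2.57 and 1.46) and its paralogue Tbc1d9 (2.12 and 1.27) behaved alike in both lists, as did Tbc1d8 (2.04 and 1.20). Other strong peaks were those of Tbc1d2 (2.39 and 1.75), a Rab7 regulator, Tbc1d16 (2.32 and 1.96) and Tbc1d10b (2.22 and 1.51).

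A few strongly marked GTPase-activating proteins had close values in the lists. Tbc1d24 stood at 3.28 in WT and 2.89 in KO, over 16886 and 15946 bases, and Tbc1d10c at 2.95 and 2.81. With Tbc1d5 these were the only 3 regulators at or above 4-fold in KO. Tbc1d13 (1.28 and 1.14), Tbc1d20 (0.96 and 0.86) and Tbc1d22a (0.95 and 0.84) had close values in overlapping strongest peaks. Rab3gap1 stood at 1.01 in a WT 5' UTR peak with no KO partner and at 1.0 in a KO 3' UTR peak, whose WT partner had 0.62. Tbc1d25 (1.62 and 1.06), a regulator of autophagosomes, Tbc1d2b (1.81 and 1.30) and Tbc1d10a (1.52 and 1.18) were lower in KO by less than 1. So were the weaker Tbc1d15 (1.01 and 0.82), a mitochondrial Rab7 regulator, and Tbc1d22b (0.92 and 0.68). For Tbc1d2b and Tbc1d15 the strongest WT and KO peaks did not overlap, the KO value of Tbc1d2b being a 125-base intronic peak. Their overlapping pairs stood at 1.81 and 0.83 (Tbc1d2b) and at 1.01 and 0.79 (Tbc1d15). Tbc1d12 stood at 1.28 and 1.39, the KO value in a 125-base peak with no WT partner, while its shared 3' UTR peak had 1.28 and 0.83. Tbc1d7 (0.70 and 0.79), a subunit of the TSC complex, Tbc1d32 (0.87 and 0.93), which acts at cilia, and Tbc1d31 (0.74 and 0.72) differed little.

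Tbc1d5, which switches off Rab7 at the retromer, was the single member with a KO value higher by 1 or more, at 1.36 in WT and 2.53 in KO; among all genes 0.714% were. The KO value belonged to an intronic peak of 275 bases (adjusted p = 4.03e-07) that lay inside a 16086-base WT peak at 1.13. The longest peak, at the gene start, which both lists share (154412 and 154387 bases), was at 1.36 (WT) and 1.55 (KO), and the 3' UTR peak at the gene end at 1.30 and 0.98. Rab3gap2, a subunit of the Rab3 and Rab18 regulator RAB3GAP, also owed its higher KO value (0.86 and 1.69) to an intronic peak, of 425 bases with no WT partner; its shared 3' UTR peaks stood at 0.86 and 0.94. Tbc1d8b (1.25 and 1.62), Rabgap1 (0.64 and 0.92) and Tbc1d23 (0.88 and 1.11) were higher by less than 1, the last through a 175-base KO peak with no WT partner. For Tbc1d8b the strongest peaks did not overlap, being a 511-base 3' UTR peak in WT and a 21015-base 5' UTR peak in KO. Its overlapping pair stood at 0.91 and 1.62, but among peaks of at most 1000 bases its values were 1.25 and 0.63.

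Effectors and exchange factors were lower in KO with 1 exception. Of the 8 effectors or partners, 7 had the lower KO value (73.4% of all genes), with a median difference of -0.81 beside -0.25 for all genes; 8 genes are few for reading such a count. The Rab11 family-interacting proteins, which link recycling endosomes to motors, included Rab11fip2 (2.66 in WT and 1.41 in KO), Rab11fip5 (2.26 and 1.0), Rab11fip1 (1.85 and 0.89) and Rab11fip3 (1.40 and 1.17). The first 3 of these had overlapping strongest peaks in the 2 lists; for Rab11fip3 the strongest WT peak, in the 3' UTR, overlapped a KO peak at 0.77, and the strongest KO peak overlapped a WT peak of the gene start at 1.10. Rab11fip2 also had a short peak in each list at different positions, at 0.66 in WT (125 bases) and 1.17 in KO (575 bases). The rabaptins, Rab5 effectors that bind the exchange factor Rabgef1, stood at 2.21 and 1.29 (Rabep1) and 2.02 and 1.31 (Rabep2), and Rabgef1 itself at 2.04 and 1.22. Of the exchange factors for Rab8 and Rab3, Rab3il1 stood at 3.06 and 1.81 and Rab3ip at 1.41 and 0.91. Rabepk, a Rab9 effector, stood lower, at 1.17 and 0.82. Rab5if, named as a Rab5-interacting factor, was the exception, with 0.80 and 0.85 in an identical 246-base peak. Of the Rab5 genes themselves, Rab5a was lower in KO, and Rab5b and Rab5c were higher.

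The antisense RNA Rab11fip4os1 had a WT value of 3.12 and a KO value of 3.51, the strongest KO peak among the 91 genes, over 1800 and 650 bases. Rab10os stood at 0.83 and 0.71. Per the labels' protocols the libraries mark strand, and the lists give each peak's strand.

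**Figure D3:**
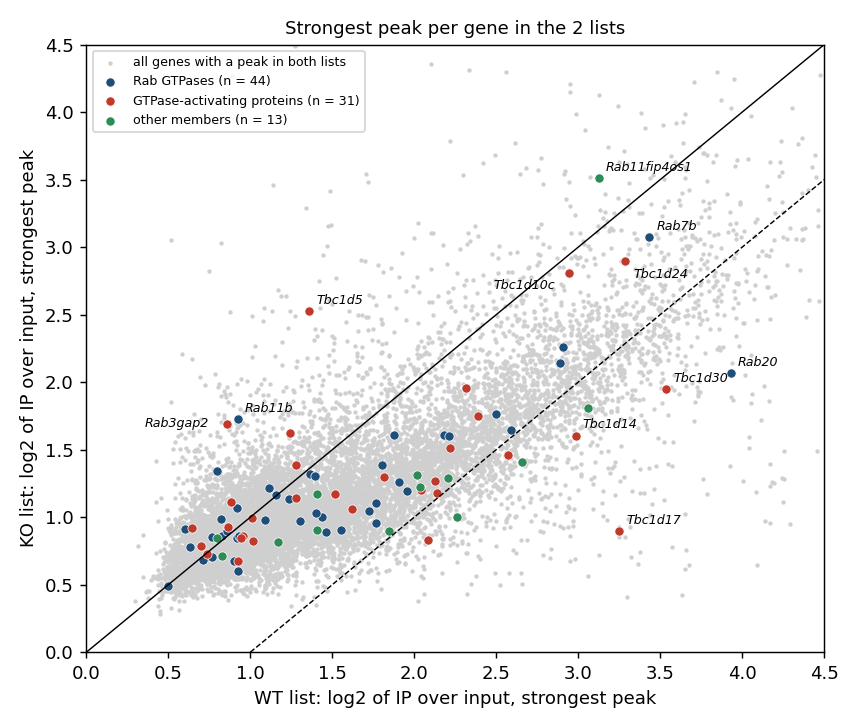
Strongest-peak log2 of IP over input in the WT list (horizontal axis) against the KO list (vertical axis) for the 12320 genes with both (grey) and for 88 members coloured by role; the solid line marks equal values, the dashed line a KO value lower by 1, and genes beyond the axis ends are not drawn. Members spread through the grey cloud, with 9 on or below the dashed line, among them Tbc1d17 and Rab20, and Tbc1d5 far above the solid line.

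Taken over all 88 members with both values, the KO value was lower for 67, or 76.1%, and higher for 21, close to the 73.4% lower of all genes. The median difference was -0.30 (interquartile range -0.69 to -0.01), beside -0.25 (-0.64 to 0.02) for all genes, and 45 of 88 lay below the median of all genes. It was lower by 1 or more for 9 members, or 10.2%, against 9.54%. These shares are near the background, and nothing particular to Rab genes is read from them.

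Members were also set beside all genes of like WT level; since the WT value is a term of the difference, an order over these levels is built in and is not a result. Members at or above 4-fold in WT had a median difference of -0.83, with 27 of 28 lower in KO (3143 of 3351 for all genes), those with a WT log2 from 1 to 2 one of -0.34, with 26 of 31 lower (4282 of 5210), and those below 1 one of 0.04, with 14 of 29 lower (1622 of 3759). All genes cut in the same way gave -0.83, -0.30 and 0.03.

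Higher KO values mostly sat on narrow peaks. For 19 of the 21 members with the higher KO value, the strongest KO peak spanned at most 1000 bases, against 72.6% of all genes with the higher KO value. The strongest WT and KO peaks did not overlap for 27 of 88 members (25.7% of all genes), and for these the median difference was -0.02, while for the 61 with overlapping strongest peaks it was -0.42, with 50 lower and 11 higher. All genes split in the same way gave -0.16 and -0.29, the latter with 6875 of 9157 lower.

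**Figure D4:**
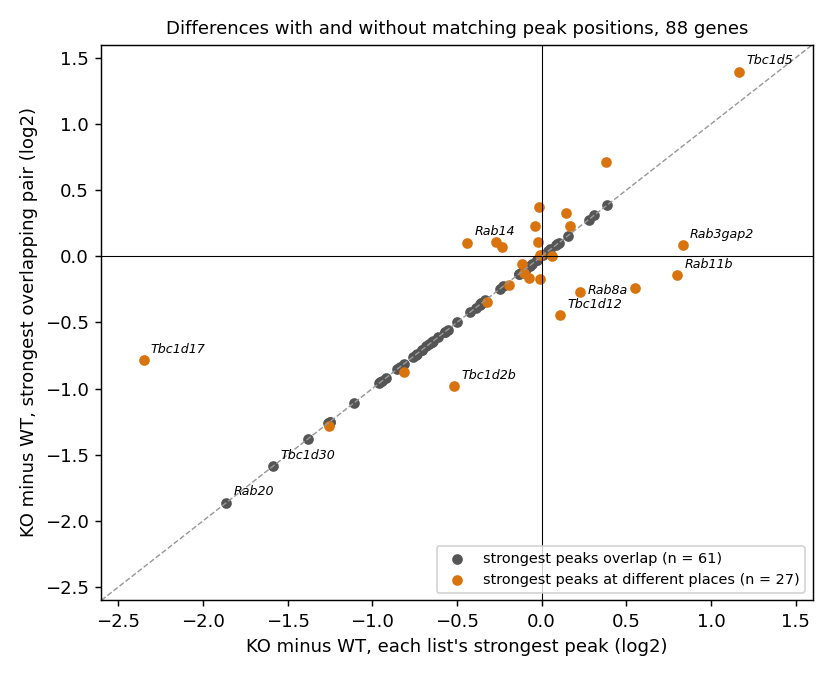
KO minus WT difference of each list's strongest peak (horizontal axis) against that of the strongest pair of overlapping WT and KO peaks (vertical axis), both log2, for 88 members; grey points have overlapping strongest peaks and orange points do not. Tbc1d17 moves from -2.35 to -0.78, Rab11b and Rab8a cross from above to below 0, and Rab20 and Tbc1d30 stay on the diagonal.

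When only overlapping peaks were paired, the median difference of the 88 members was -0.30 and 64, or 72.7%, had the lower KO value, beside 72.8% of all 12170 genes with such a pair. It was lower by 1 or more for 8 members (8.96% of all) and higher by 1 or more for 1, Tbc1d5 (0.575%). The order of WT and KO turned for 11 of the 88: Rab8a, Rab11b, Tbc1d12 and Tbc1d23 were then lower in KO, and Rab1b, Rab14, Rab15, Rab44, Rab11fip3, Rab3gap1 and Tbc1d31 higher. Among peaks of at most 1000 bases the picture was weaker: over 71 members the median difference was -0.03, with 40 lower and 31 higher, beside -0.05 for all genes. In 20 cases a member peak had identical coordinates in both lists; in 13 the KO value was the lower, the median difference being -0.07, beside -0.06 over all 2916 such pairs. Tbc1d14 gave the lowest of the 20, -1.38, and a 3' UTR peak of Rab23 the highest, 0.39 (0.65 in WT and 1.05 in KO).

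**Figure D5:**
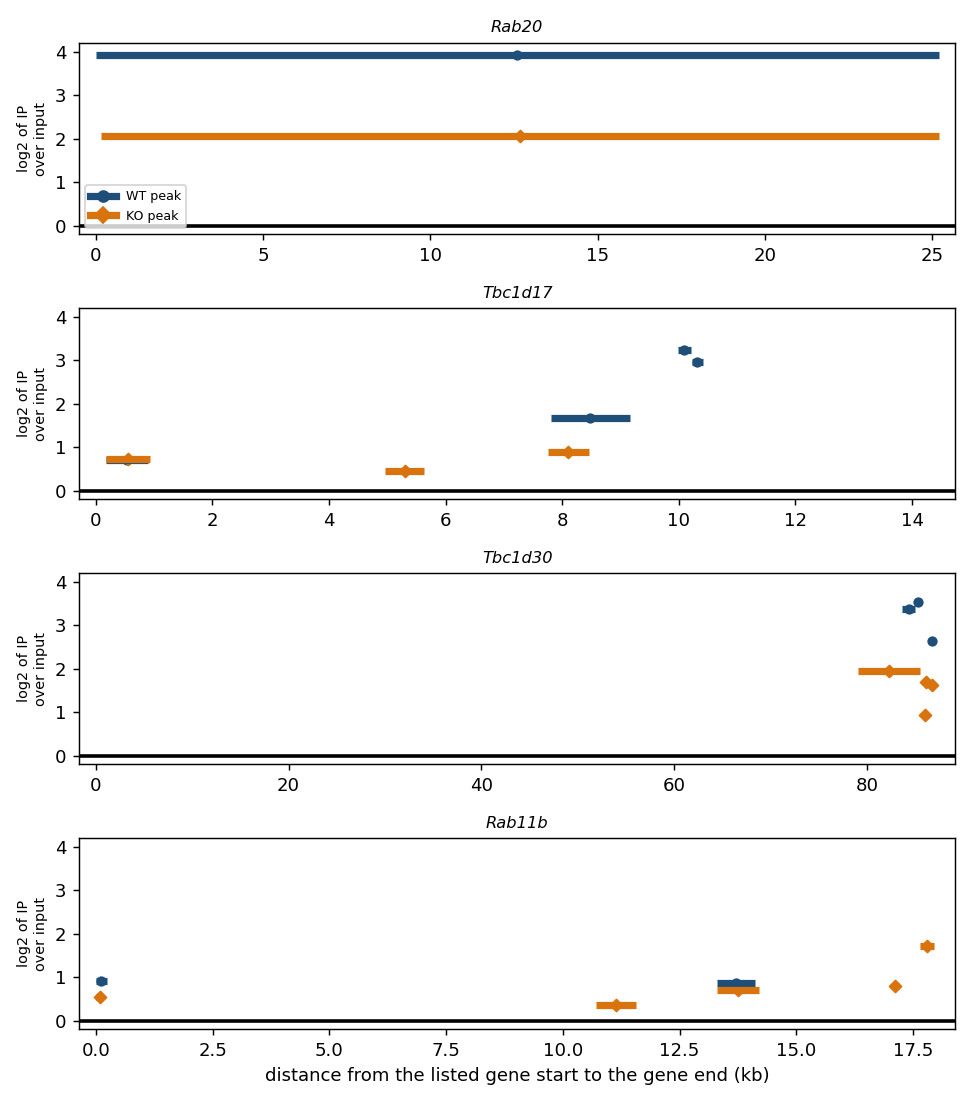
Positions of all WT peaks (blue, circles) and KO peaks (orange, diamonds) along Rab20, Tbc1d17, Tbc1d30 and Rab11b, drawn as bars from peak start to peak end against the distance from the listed gene start in kilobases, at the height of their log2 of IP over input; introns are included. Rab20 carries 1 gene-wide peak in each list, at 3.93 and 2.07, while the strongest Tbc1d17 peaks exist in WT alone and the strongest Rab11b peak in KO alone.

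Of the members' WT peaks, 84.3% (95% Wilson interval 79.5 to 88.1) overlapped a KO peak, against 77.2% of all WT peaks. Of their KO peaks, 72.0% (66.9 to 76.6) overlapped a WT peak, against 72.9%. Peaks at or above 4-fold numbered 33 in WT and 9 in KO. Just 2 of the 33 had no KO partner, those of Tbc1d17, and all 9 in KO had a WT partner; over all peaks 700 of 4307 in WT and 137 of 1618 in KO had none. Peaks without a partner had a median log2 of 0.67 in WT and 0.56 in KO, below the 0.82 and 0.76 of peaks with one.

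The authors' gene annotation allows a grouping by compartment that the gene rule did not use; over all genes 73.4% were lower and the median difference was -0.25. Of 18 members annotated to the phagocytic vesicle, 16 had the lower KO value, with a median difference of -0.50 and 13 below the median of all genes. Of 17 recycling endosome members with both values 14 were lower, with a median of -0.42. Of 15 early endosome members 11 were lower, with a median of -0.36, of 29 Golgi members 21, with a median of -0.11, and of 7 lysosome members 6, with a median of -0.44. By pathway annotation, 3 of 5 members of the phagosome pathway were lower, with a median of -0.11, 12 of 17 of endocytosis, with a median of -0.23, and 2 of 6 of AMPK signaling, with a median of 0.13. The AMPK group includes Rab11b and Rab8a, whose higher KO values had no overlapping WT peak. Their overlapping pairs differed by -0.14 and -0.24, while that of Rab14, also in the group, turned to 0.10. A gene can belong to several of these groups, Rab20 for instance to the phagocytic vesicle and the Golgi groups, and no difference between them was tested.

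Pathway genes outside the symbol rule gave similar values. Of 72 listed symbols, 61 had a peak, 59 in both lists. The 72 hold Rbsn also under its older symbol Zfyve20, which had no row. Of the 59, 48, or 81.4%, were lower and 11 higher in KO (73.4% of all genes lower), with a median difference of -0.31. It was lower by 1 or more for 5, or 8.47% (9.54%). Of the 28 exchange factors outside the rule with both values, 22 were lower and 3 by 1 or more, with Dennd1a at 4.09 and 2.82 and Dennd6a at 3.07 and 1.53. The remaining TBC-domain genes were 7 lower of 8, and effectors and tethers 14 lower of 16, Vps39, a subunit of the HOPS tether that Rab7 recruits, standing at 2.78 and 1.62.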

How the data were processed

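The sample titles name BV2 cells and LPS, while the labels' protocol text names neuroblastoma cells. Per those protocols, poly(A) RNA was fragmented, pulled down with antibody to m6A and made into libraries that keep strand. The submitters' processing notes list edgeR, StringTie, HOMER, HISAT2, FastQC and fastp, without role or version. Not given in the sources used here are the peak caller, the build and any pooling of replicates. The deposited lists hold, per the file headers, the log2 of IP over input of every peak with its p-value and adjusted p-value; 1 member KO peak had an adjusted p above 0.05 (0.0527). The lists count starts from 0, so 1 was added. Depth per library is unknown.

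Each gene was summarised by its strongest peak in each list, and differences are KO minus WT. Peaks overlapped where they shared 1 base or more and the strand. A difference of 1 or more was counted as called, with no test. Any member may be named; the strongest, the most different and the genotype-restricted are given in full. Members and lists were chosen with earlier results of these data known. Roles rest on the gene symbol, compartment lists on textbook knowledge, and the phagosome and other annotation groups on the deposited gene annotation. RefSeq starts were matched by symbol; 74 of the 91 genes had one. Scripts ran in Python 3.11.15 with SciPy 1.17.1, matplotlib 3.10.9, numpy 2.4.6 and pandas 2.3.3. The steps were run on a copy of the WT list with some genes removed and others lowered. Recovery of these genes was fixed by that design, so it checks the code and not performance on separately called lists. Alternatives were an adjusted p of at most 0.001, 4-fold peaks, peaks of at most 1000 bases, equal numbers of peaks, the mean over peaks, centring on all genes, overlapping pairs, 50% reciprocal overlap and strand ignored.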

Additional observations from a re-analysis of the deposited data

How the results depend on the processing

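No paired analysis was possible because the lists hold no value of a single library; leaving out replicates was not run for the same reason. The median difference of members was negative in every setting run. It was -0.34 with an adjusted p of at most 0.001, -0.39 with 4-fold peaks, -0.20 with means and -0.30 with overlapping pairs, and moved to -0.027 among peaks of at most 1000 bases and to -0.048 after centring on all genes, where 43 members were higher in KO and 3 by 1 or more.

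With 4-fold peaks only, 28 members had a WT peak, 8 a KO peak and 21 a WT peak only. Over all genes, 3738 had such a peak in WT and 1480 in KO, or 28% and 11.4% of those with any peak. For members these shares were 31.1% and 8.99%. Of 7 members with both, 6 were lower and 1 higher, 1 lower and 0 higher by 1 or more. At this cut, genes with a peak in WT only and differences were not counted over all genes. Nothing particular to the members is therefore read from these member counts. Overlap then fell to 24.2% of WT peaks and was 88.9% of KO peaks, 3' UTRs held 75.8% and 66.7%, and coding exons 12.1% and 0%. The same overlap was not computed over all peaks, so nothing particular to the members is read from it. With peaks of at most 1000 bases, 4 of 84 members had a WT peak only and 9 a KO peak only (1452 and 1737 of 12549 for all genes). Of 71 with both, 40 were lower, 4 by 1 or more, and 2 higher by 1 or more. For all genes these counts were 5447, 412 and 148 of 9360. Rab11fip2 turned to 0.52 in this setting. There 3' UTRs held 73.8% of WT and 71.4% of KO peaks, coding exons 12.8% and 14.6%, and 5' UTRs 7.93% and 7.54%. With means over peaks 13 members were higher, 4 lower by 1 or more and 0 higher by 1 or more (2810, 673 and 49 of 12320 for all genes). With an adjusted p of at most 0.001, 2 were higher by 1 or more. Reciprocal overlap of 50% left 55.8% of WT and 47.1% of KO peaks shared, beside 53.1% and 47.3% of all peaks. Fewer peaks entered the settings with stricter peak limits, while means, centring and reciprocal overlap used all peaks. The cause of the changes was not tested. Of the 10 members that differed by 1 or more, 9 did so with overlapping pairs, 4 with means and 4 of 7 with short peaks.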
